A study of Mus musculus with 3 samples.

Results

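The BCL2 family was read here through 10 genes that set the balance between survival and death at the mitochondrion: the survival genes Bcl2, Bcl2l1, Bcl2l2 and Mcl1, the effectors Bax and Bak1, and the BH3-only genes Bid, Bad, Bcl2l11 and Bmf. Members were all probe sets whose platform annotation gives exactly 1 gene symbol and that symbol is one of these. The rule found 34 of the 45101 probe sets on the array, and they stand for 9 of the 10 genes. No probe set listed under Bax was found by this rule, so Bax was not analysed here and the effectors are represented by Bak1 alone. The cells were NIH3T3, an immortalised mouse fibroblast line, and their expression was read on 3 single-colour arrays of biotin-labelled RNA. Empty-vector cells, labelled as basal and with no treatment, were measured on 2 arrays (empty vector 1 and empty vector 2). Cells carrying an shRNA, a short hairpin RNA that silences a gene, here retinol saturase (Retsat), labelled as highly resistant to t-BHP (tert-butyl hydroperoxide, an organic peroxide), were measured on 1 array. Calf serum in DMEM is given as the medium of the empty-vector cells, while medium and treatment of the shRNA cells, and whether they were 1 clone or a pool, are not stated in the labels.

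BCL2 family proteins decide whether the outer mitochondrial membrane stays closed. Bax and Bak1 open it and let cytochrome c into the cytosol, where it starts the caspase cascade. The survival proteins bind and hold the effectors, and the BH3-only proteins, named for the single homology domain they share with the rest of the family, are stress sensors that occupy the survival proteins or activate the effectors directly. Peroxide is a classical trigger of this mitochondrial route, and much of the family's control is after transcription, through phosphorylation, cleavage and protein turnover, which arrays do not read.

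Retsat, the target, read 416 and 496 on the controls and 69.5 on the RetSat shRNA array for the brighter of its probe sets, which leaves 15.2% of the mean empty-vector signal. Fibroblast markers were bright (10 of 10 above the filter on dim signal, from 811 to 19516 units, summed signals 86084 and 86947 on the controls and 88135 with the shRNA). Of the markers of other cell types, 2 of 4 epithelial, 1 of 4 leukocyte, 0 of 3 endothelial and 0 of 3 muscle genes passed the filter, none above 142 units. The arrays were unequally alike, and a control stood apart. Over 19518 tested probe sets the SD of the log2 difference was 0.38 between RetSat shRNA and empty vector 2, 0.79 between the empty-vector arrays and 0.81 between RetSat shRNA and empty vector 1. The closest arrays, RetSat shRNA and empty vector 2, also share the number 2 in their titles. The labels do not say what it stands for, and whether it marks a common set was not tested. The proliferation genes Mki67 (3234 and 125 on the controls and 122 with the shRNA) and Top2a (5904, 654.5 and 624) followed the same division, while Pcna was level (10420, 10141 and 10310), and the summed signal of these 3 was 19558, 10921 and 11056. Their part in the results for the BCL2 family was not tested. Each result below is therefore given against each empty-vector array and read beside the difference between these arrays. That difference comes from 1 pair of arrays and can be small at a single probe set, as on a Bak1 probe set that read 76.9 on both. A larger difference than that is therefore not a test. Each array reads the RNA of a whole culture, so fewer cells with a transcript and less of it per cell cannot be told apart. The differences from both controls share the RetSat shRNA array.

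Signals are deposited intensities on a linear scale. Log2 differences were taken after adding an offset of 10.2 units, and they understate the change of dim probe sets. A probe set was tested when its mean log2 signal reached the median over the array, about 33.3 units, and 25 of the 34 family probe sets, of all 9 genes, were tested. The dimmest tested one was a Bid probe set with an x in its suffix (at 47.9 units on that mean), and the brightest untested one was a Bcl2l2 probe set (at 24.8). By the maker's naming, an x in the suffix marks probes that may also bind other transcripts. It applies to 7 of the 34. The dimmer Bak1 probe set and the tested one of Bmf carry an s in the suffix instead. Whether these bind other transcripts was not examined. Probe sets of a gene are called first, second and so on by their mean control signal, in the order of the plot of signals. Values on the arrays are given in the order empty vector 1, empty vector 2, RetSat shRNA. Signals of different probe sets are not compared with one another, since each has its own affinity.

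**Figure D1:**
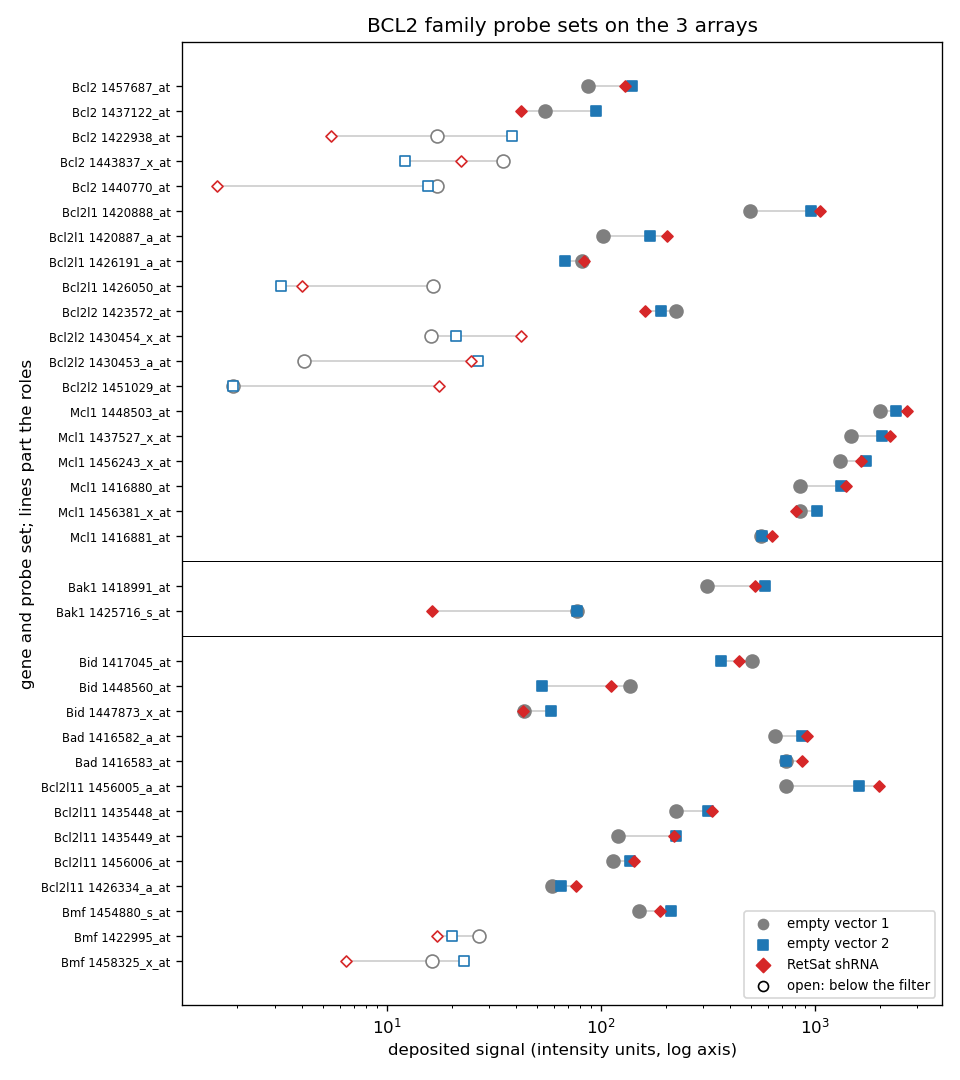
Deposited signal (log axis) of each of the 34 BCL2 family probe sets on empty vector 1 (circles), empty vector 2 (squares) and RetSat shRNA (diamonds), with open symbols for the 9 below the filter and lines parting survival genes, effectors and BH3-only genes. In the first probe sets of Bcl2l1 and Bcl2l11 the circle stands well to the left of the square and diamond, which lie closer together (497 against 952 and 1052.5, and 733 against 1609 and 1989); where a circle seems missing it lies under another symbol.

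In limma, no BCL2 family probe set separated RetSat shRNA from the controls (0 of 25 at the 0.05 threshold on adjusted p; 0 of all 19518, a background of 0%). At an unadjusted p under 0.05 there was 1 of 25, a Bak1 probe set, against 1.03% of all tested probe sets (201). Adjusted p was 0.9999 for each of the 25 (limma with Benjamini-Hochberg adjustment). The fit has 1 residual degree of freedom, from the control arrays, and did not pass Retsat either (adjusted p = 0.9999). A count of 0 from it thus does not show that the genes were level. The SEs given below are also from this fit, which draws on the spread of all tested probe sets. They are thus not the scatter of the named probe set alone. Beside limma, a rule of size was used, which takes probe sets that lie 2-fold or more to the same side of each control. It took 0 of the 25 on the higher side (background 0.149%) and 1 on the lower side (background 0.932%), the same Bak1 probe set.

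RetSat shRNA lay above both empty-vector arrays for 13 of the 25 probe sets (52%) and below both for 5 (20%), compared with 30.8% and 29.2% of all tested probe sets. Any difference counted here, however small, so the 13 include the third Bcl2l1 probe set (log2 difference 0.02 from empty vector 1) and the 5 include the third of Bid (-0.01). Probe sets of 1 gene read the same transcripts and do not count separately. With 1 probe set per gene, the brightest, RetSat shRNA was above both arrays for 4 of 9 genes (44.4%; Bcl2l1, Mcl1, Bad and Bcl2l11) and below both for 1 (11.1%; Bcl2l2). The shares among all genes were 34.4% and 25.4%, so at the level of genes the family lay near the background. Over all 34 probe sets, dim ones included, 15 lay above both arrays and 9 below, against 30.7% and 31.9% of all 34945.

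The family's median log2 difference against empty vector 1 was 0.33, against empty vector 2 it was 0.07, and between the empty-vector arrays (2 minus 1) it was 0.41. Medians over all tested probe sets were 0.05, -0.01 and 0.06. Most of the displacement thus separated empty vector 1 from both other arrays. Empty vector 2 exceeded empty vector 1 on 19 of the 25 probe sets, against 54% of all tested (10540). Centring the arrays on their medians moved the median difference of all probe sets from empty vector 1 to 0.21, and quantile normalization to 0.15. The family's counts were then 14 above and 3 below (background 38.7% and 22.7%), and 14 and 4 (34.2% and 24.7%).

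**Figure D2:**
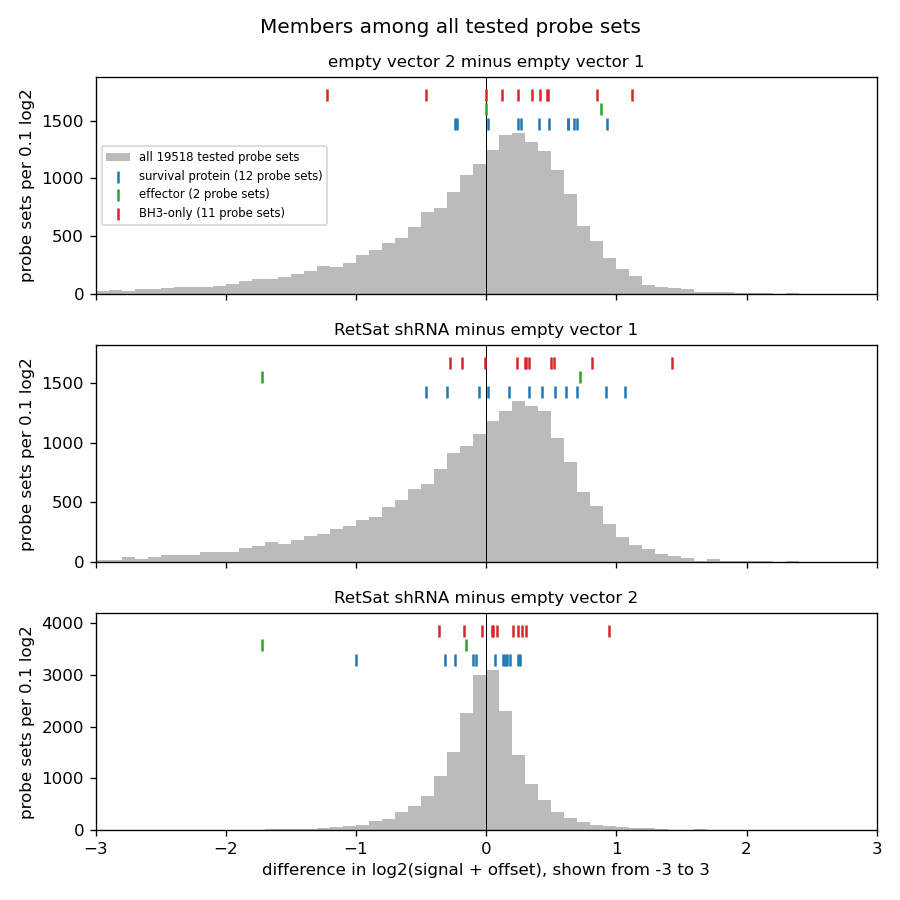
Histograms of the log2 difference over all 19518 tested probe sets for each pair of arrays, with ticks for the probe sets of survival genes (12), effectors (2) and BH3-only genes (11). The survival and BH3-only ticks lie mostly right of 0 in the upper and middle panels, with medians of 0.45 and 0.35 between the controls, and close around 0 in the lower panel, with medians of 0.10 and 0.08.

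Among the tested survival probe sets, the first and second of Bcl2l1, which encodes BCL-XL, were furthest from empty vector 1, while the third was nearest (log2 differences 1.07, 0.92 and 0.02). The first read 497, 952 and 1052.5. RetSat shRNA was thus 2.12 times empty vector 1 but 1.11 times empty vector 2, while the controls themselves stood 1.92-fold apart. The log2 difference from the mean of the controls was 0.61 (SE 0.578). The second Bcl2l1 probe set had the same order at 102, 169 and 202.5. The third read 81.7, 67.6 and 82.7, so that RetSat shRNA stood barely above empty vector 1 and empty vector 2 was lowest. The fourth was below the filter, at 16.4, 3.2 and 4.0.

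Mcl1 encodes a short-lived survival protein that cells must keep making. Its first probe set read 2005, 2375 and 2696, a log2 difference of 0.30 (SE 0.496) from the control mean. The signal on RetSat shRNA was 1.34 times that on empty vector 1 and 1.14 times that on empty vector 2. The second read 1461, 2047 and 2245, and the fourth read 853, 1323 and 1388, both in the same order. On the sixth the controls were level at 558 and 564 and RetSat shRNA read 631. The remaining probe sets, both with an x in the suffix as the second also has, did not share that order. On the third RetSat shRNA lay between the controls (1299, 1727 and 1638), and on the fifth it lay below both (847, 1020.5 and 817), although between them once the arrays were centred. Across the 6 Mcl1 probe sets, 4 put RetSat shRNA above both controls, with differences from empty vector 2 between -0.32 and 0.18.

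Bcl2 is the founding survival gene of the family, and 2 of its 5 probe sets passed the filter. The first read 86.5, 139 and 129, with RetSat shRNA between the controls. On the second the signals were 54.4, 94.6 and 42.1, so RetSat shRNA was lowest, 0.445 times empty vector 2 but 0.774 times empty vector 1, and the controls differed 1.74-fold. The other 3 were below the filter and read at most 38.4. On 2 of them RetSat shRNA was lowest (17.2, 38.4 and 5.5 on the third, and 17.1, 15.6 and 1.6 on the fifth) and on the fourth it lay between the controls (34.7, 12.1 and 22.1). Without detection calls, it is not known whether signals this dim stood above background.

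Bcl2l2, which encodes BCL-W, ran opposite to Bcl2l1 and Mcl1. Its 1 tested probe set read 224, 190.3 and 159, so RetSat shRNA was below both controls, at 0.712 and 0.838 times their signals. The log2 difference was -0.35 (SE 0.495), against -0.22 between the controls. Its 3 dim probe sets did not follow it. On the second RetSat shRNA was highest (16.1, 21.0 and 42.2), on the fourth it was 17.5 against 1.9 on each control, and on the third it lay between them (4.1, 26.6 and 24.6).

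The effector Bak1 gave unlike readings from its pair of probe sets. On the first the signals were 314, 585 and 524. RetSat shRNA lay between the controls, close to empty vector 2, and the controls differed 1.87-fold. On the second, the dimmer, both controls read 76.9 and RetSat shRNA read 16.2, which is 0.211 of either. Its log2 difference was -1.72 (SE 0.489), with an unadjusted p of 0.0103 and an adjusted p of 0.9999 in limma. This was the 1 family probe set that met the rule of size, and it no longer met it with an offset of 50 units. The RetSat shRNA signal there was below that array's median of 35.7 units, and the brighter probe set showed no such drop.

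Bcl2l11 encodes BIM, a BH3-only protein that binds all the survival proteins, and its gene is a known target of FOXO transcription factors. The stretch of 250 bases before its first listed start is shown because its first probe set had the highest ratio of RetSat shRNA to empty vector 1 among the tested family probe sets, beside those of Mcl1, which had the same order of arrays, and Bcl2, which did not. The sequences are from RefSeq (mouse GRCm38.p6), each 5′ to 3′ on the gene's strand, at chr2:128125788-128126037 (plus strand), chr3:95658471-95658720 (plus) and chr1:106714291-106714540 (minus). Capitals mark the FOXO core GTAAACA and the Sp1 box GGGCGG on either strand, so GGGCGG on the opposite strand appears as CCGCCC.
Bcl2l11: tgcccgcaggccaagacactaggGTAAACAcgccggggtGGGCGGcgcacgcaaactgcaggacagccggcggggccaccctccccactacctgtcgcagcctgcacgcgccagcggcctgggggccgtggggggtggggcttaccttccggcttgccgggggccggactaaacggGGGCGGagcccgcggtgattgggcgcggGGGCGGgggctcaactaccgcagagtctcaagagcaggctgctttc
Mcl1: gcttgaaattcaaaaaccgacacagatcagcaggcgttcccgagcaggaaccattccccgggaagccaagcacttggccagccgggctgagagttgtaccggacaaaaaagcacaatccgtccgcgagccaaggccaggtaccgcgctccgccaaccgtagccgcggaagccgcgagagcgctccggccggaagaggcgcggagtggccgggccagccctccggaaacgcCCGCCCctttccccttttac
Bcl2: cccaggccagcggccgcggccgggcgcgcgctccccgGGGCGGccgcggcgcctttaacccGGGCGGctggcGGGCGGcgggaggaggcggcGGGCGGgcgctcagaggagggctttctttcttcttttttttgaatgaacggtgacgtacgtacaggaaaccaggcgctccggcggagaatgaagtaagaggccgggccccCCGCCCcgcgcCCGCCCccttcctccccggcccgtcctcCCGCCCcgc
The Bcl2l11 stretch holds 1 FOXO core and 3 Sp1 boxes, that of Mcl1 holds 1 Sp1 box, and that of Bcl2 holds 7. No marked matches overlap. Of all 32851 stretches of this length in the table, 3.17% hold the FOXO core and 32.7% the Sp1 box. Among the 16 stretches listed for the 10 genes, 1 holds the FOXO core and 8 the Sp1 box. The other stretch listed for Bcl2l11, not printed, holds 2 Sp1 boxes and no FOXO core. Searched the same way, TGACTCA (AP-1; 4.46% of all stretches), TATAAA (a core promoter box; 12.4%) and TTCNNNGAA (STAT; 7.02%) occur in 0 of the 16, and CACGTG (E-box; 6.02%) in 1. The 3 stretches of Bcl2l1 hold none of these 6 motifs. A match describes letters in a window and not a bound site.

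Bcl2l11 had 5 tested probe sets, and empty vector 1 was lowest on each. The first read 733, 1609 and 1989. RetSat shRNA was 2.71 times empty vector 1 and 1.24 times empty vector 2, and the controls stood 2.19-fold apart. Its log2 difference of 0.87 (SE 0.616) from the control mean was smaller than the 1.12 between the controls. The second (225, 317 and 328), the fourth (114, 136 and 142) and the fifth (58.9, 64.9 and 76.4) had the same order. On the third (119.5, 223 and 218) RetSat shRNA lay just under empty vector 2, and just over it once the arrays were centred. Against empty vector 2 alone the differences of the 5 ran from -0.03 to 0.30. Foxo3, a FOXO factor, read 681, 916 and 816, with RetSat shRNA between the controls.

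Bad encodes a BH3-only protein that survival kinases keep inactive by phosphorylation. Its probe sets read 646, 865 and 914.5 on one and 733.5, 731 and 868 on the other. RetSat shRNA was highest on both. On the second the controls agreed within 0.01 on the log2 scale and RetSat shRNA was 1.18 and 1.19 times their signals, a log2 difference of 0.24 (SE 0.489).

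Bid encodes the protein that caspase-8 cleaves to carry death receptor signals to the mitochondrion. Its brightest probe set read 505, 363 and 443, with RetSat shRNA between the controls. On the second the controls were 2.59-fold apart in the same direction (137 and 52.9) and RetSat shRNA again lay between them at 111. That was 0.811 times empty vector 1 and 2.10 times empty vector 2. After quantile normalization RetSat shRNA lay above both controls there, barely so for empty vector 1 (log2 difference 0.02). On the third the signals were 43.5, 58.2 and 43.1, so RetSat shRNA stood barely below empty vector 1, and between the controls once the arrays were centred or quantile-normalized. In the deposited signals, Bid was thus the BH3-only gene whose brighter probe sets put empty vector 1 highest.

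Bmf encodes a BH3-only protein held by the dynein light chain until cells lose attachment. Its 1 tested probe set read 151, 212.5 and 188, with RetSat shRNA between the controls. The dim ones read 27, 20 and 17.1, and 16.2, 22.8 and 6.4, with RetSat shRNA lowest on both.

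**Figure D3:**
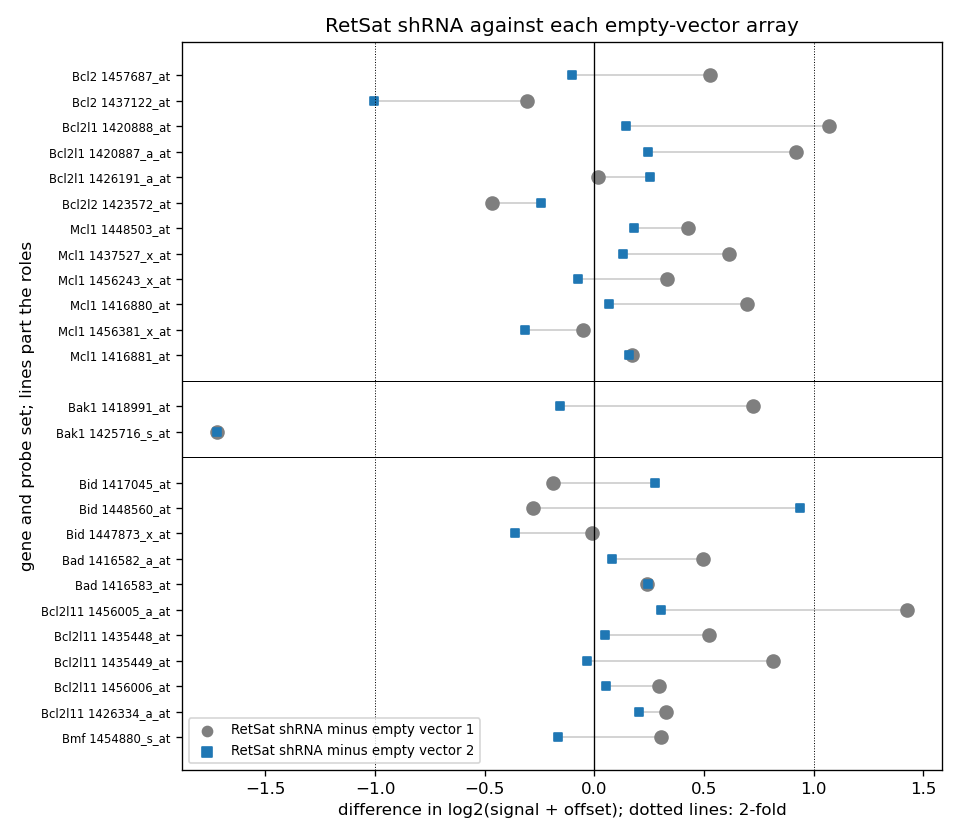
Log2 difference of RetSat shRNA from the controls, empty vector 1 as circles and empty vector 2 as squares, for the 25 tested BCL2 family probe sets, with dotted lines at 2-fold. The second Bak1 probe set, at -1.72 from both, is the only one with both symbols past the same dotted line, and the circles of the first Bcl2l1 (1.07) and the first Bcl2l11 (1.43) probe sets pass it while their squares stay at 0.14 and 0.30.

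By role, the median log2 difference from empty vector 1, then from empty vector 2, was 0.38 and 0.10 for the 12 survival probe sets and 0.30 and 0.08 for the 11 BH3-only probe sets. RetSat shRNA was above both controls on 7 of 12 and 6 of 11 (background 30.8%), and below both on 3 and 1 (background 29.2%). Probe sets of the same gene recur in these counts and medians. Mcl1 gives 6 of the 12 and Bcl2l11 gives 5 of the 11. The 7 are 4 of Mcl1 and 3 of Bcl2l1, and the 6 are 4 of Bcl2l11 and 2 of Bad. The medians of survival and BH3-only genes thus had the same sign against each control. A difference between these roles was not tested. The 2 probe sets of Bak1 had medians of -0.50 and -0.94. They had opposite signs against empty vector 1 (0.72 and -1.72) and were both lower than empty vector 2 (-0.16 and -1.72).

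Other genes of the mitochondrial and death receptor routes were read at 1 probe set per gene, the brightest. None passed limma (0 of 49 in 5 lists; 0 of all 10843 genes, a background of 0%), 0 had an unadjusted p under 0.05 (108 of all genes, 0.996%), and 0 met the rule of size (background 0.0922% higher and 0.498% lower). Of the 16 other BCL2 family genes listed, 12 had a probe set and 7 passed the filter. RetSat shRNA was above both controls for 6 of these 7 and below both for 0, against 34.4% and 25.4% of all genes. Any difference counted here too, so the 6 include Bnip1 and Bcl2l14 (log2 differences 0.02 and 0.08 from empty vector 2). The median difference of the 7 was 0.33 against empty vector 1 (0.14 over all genes), and against empty vector 2 it was 0.21 (0.00 over all genes). Bcl2l13, a mitochondrial family member, read 392, 446 and 618. Bnip3, a hypoxia-induced gene of mitochondrial clearance, read 2307.5, 1971 and 2770.0. Bbc3, the p53 target that encodes the BH3-only protein PUMA, read 89.7, 164 and 195. The RetSat shRNA signal was highest for each of these, and for Bbc3 the controls were further apart than RetSat shRNA was from empty vector 2.

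Genes of the apoptosome and caspases went both ways, with 4 of 12 above both controls and 5 of 12 below (34.4% and 25.4% of all genes), and medians of -0.18 and 0.00 (0.14 and 0.00 over all genes). Endog, a mitochondrial nuclease, read 158, 248 and 286, and cytochrome c (Cycs) read 9300.1, 11657 and 13255. Dffb, the caspase-activated DNase, read 73.8, 65.2 and 57.1. Inhibitor of apoptosis genes had 1 of 5 above both controls and 1 of 5 below (34.4% and 25.4% of all genes). Their medians were -0.71 and 0.09, against 0.14 and 0.00 over all genes. Xiap, which blocks caspases directly, read 1171, 857 and 810.1, and Birc5 (survivin) read 3268, 3425 and 3476.

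Of 11 death receptors and adaptors listed, 10 had a probe set and 7 passed the filter. These had 4 of 7 above both controls and 1 of 7 below, with medians of 0.22 and 0.18. All tested genes had shares of 34.4% and 25.4% and medians of 0.14 and 0.00. Tnfrsf21 (death receptor 6) read 42.7, 68.7 and 82.4, the TNF receptor Tnfrsf1a read 1279, 1901 and 2102, and Cflar, which holds caspase-8 inactive, read 301, 303 and 351.5. Partners and regulators of the family had 6 of 18 above both and 5 of 18 below (34.4% and 25.4% of all genes). Their medians were 0.28 and -0.06, against 0.14 and 0.00 over all genes. Dynll1, a dynein light chain, read 12927, 15534 and 17806. Huwe1, a ubiquitin ligase of MCL1, read 1373, 371 and 327, and Bcap31, an endoplasmic reticulum protein cleaved in apoptosis, read 5499, 5194 and 4724. For Huwe1 the large step was between the controls.

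**Figure D4:**
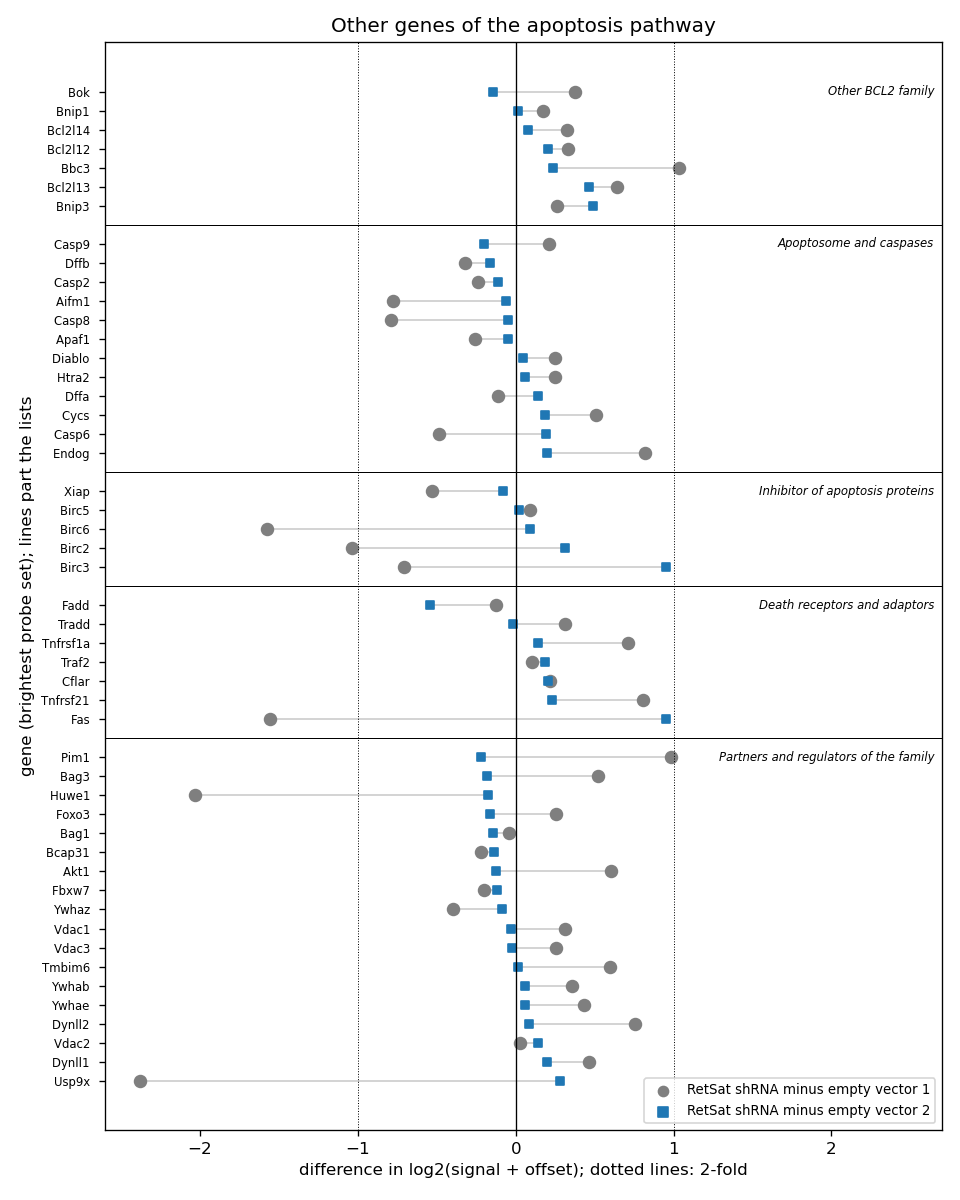
Log2 difference of RetSat shRNA from the controls, empty vector 1 as circles and empty vector 2 as squares, for 49 other genes of the apoptosis routes in 5 lists, with dotted lines at 2-fold. All squares lie within the dotted lines, while the circles of Usp9x (-2.38), Huwe1 (-2.03), Birc6 (-1.57), Fas (-1.55), Birc2 (-1.03) and Bbc3 (1.04) lie outside them.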

How the data were processed

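RNA from NIH3T3 cells was measured on 3 arrays. As deposited, each value is the intensity of a probe set on a linear scale. The labels name neither the authors' software nor a summarisation method. The 2% trimmed mean was 250.0 on all 3, which points to scaling before deposit. The small number of arrays limits the precision. Groups came from sample titles. Nothing says that the empty-vector arrays were separate cultures, so the spread behind the p-values may be technical.

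Of the 45101 probe sets, 34945 had 1 gene symbol, 932 several, 9160 none listed and 64 were controls. Only the first kind was used, and no symbol of a family probe set changed when looked up by gene ID in GRCm38.p6 (0 of 34). Values were log2-transformed after adding 10.2, the 25th percentile of all values, and 19518 probe sets (10843 genes) passed the filter. The log2 values were fitted over all 3 arrays in limma 3.58.1 (R 4.3.3, lmFit and eBayes, two-sided, Benjamini-Hochberg, 0.05) and summarised in Python 3.11.15. The model assumes that the single shRNA array varies as the controls do. The limma fit was tried on simulated arrays with a spread common to all genes. That does not show how it performs on the unequal arrays here. All family probe sets are described. Of each other list (other BCL2 family, apoptosome and caspases, inhibitors of apoptosis, death receptors, partners), up to 3 genes on the same side of both controls are named, ranked by the smaller of their differences. The members and lists were chosen with earlier results of these data known. Alternatives were the offset, filter, scaling, variance prior, 1 probe set per gene and leaving out each control.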

Additional observations from a re-analysis of the deposited data

How the results depend on the processing

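Across the alternatives, limma called 0 probe sets in every setting tried except with arrays centred on their medians, where 2 passed (Cblb and Slc1a3, neither of the family). The rule of size, which took 29 higher and 182 lower of all probe sets, took 53 higher with an offset of 1, 5 and 15 with an offset of 50, 780 and 950 without a filter, 1 and 2 with the filter at the 75th percentile, 50 higher with centred arrays, 63 higher after quantile normalization, and 10 and 54 with 1 probe set per gene. Of family probe sets it took 0 lower with an offset of 50, with the stricter filter and with 1 probe set per gene. Without a filter it took 1 of 34 higher and 2 lower (background 2.23% and 2.72%). Family probe sets below both controls (5 of 25, background 29.2%) numbered 9 of 34 without a filter (31.9%) and 3 of 25 with centred arrays (22.7%). With 1 probe set per gene they numbered 1 of 9 (25.4%), where 4 were above (34.4%). With the stricter filter they numbered 1 of 13, for which the background was not counted. The Bak1 median of -0.72 became -0.34 with an offset of 50 and 0.28 with the stricter filter or 1 probe set per gene, since the dimmer probe set then drops out. Leaving out a control array leaves 1 array against 1 and no test. Without empty vector 1, then without empty vector 2, the rule took 228 (1.17%) and 698 (3.58%) of all probe sets as higher. It took 295 (1.51%) and 2472 (12.7%) as lower. Of the family's 25 it took 0 and 2 higher and 2 and 1 lower. RetSat shRNA was above the remaining control on 15 and 18 of the 25 (48.6% and 52.9% of all probe sets) and below it on 10 and 7. The medians were 0.10 and 0.38 for survival genes, -0.94 and -0.50 for Bak1 and 0.08 and 0.30 for BH3-only genes. The causes of these shifts were not tested where none is given. The comparison of Bax with Bcl2 was not run, since Bax was not analysed here. No paired analysis was possible, since only empty vector 2 shares its title number with the RetSat shRNA array. Whether that number marks a matched set is not stated.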

Other observations

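The genes named here were picked with their values in view. Of the 49 other apoptosis genes, 6 were at least 2-fold lower on empty vector 2 than on empty vector 1 (12.2%) and 1 was higher (2.04%), shares near those of all genes (9.32% and 3.41%). The death receptor Fas read 824 on empty vector 1, 137 on empty vector 2 and 274 on RetSat shRNA. Birc3, an inhibitor of apoptosis protein of the NF-kB response, read 543, 165 and 329. Birc6, a very large inhibitor of apoptosis protein, read 570.0, 173 and 185, and Birc2 read 285, 106 and 134. Usp9x, a deubiquitinase of MCL1, read 613, 88.3 and 109.5, whereas Pim1, a kinase that phosphorylates BAD, read 220.2, 519.5 and 445. Huwe1, described above, is the remaining one. For each of these except Huwe1, RetSat shRNA lay between the controls, and on the log2 scale it was nearer to empty vector 2 for Fas, Birc6, Birc2, Usp9x and Pim1 and nearer to empty vector 1 for Birc3.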
